A study of Mus musculus with 8 samples.

Results

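Insulin-like growth factor 1 (Igf1), its receptor Igf1r and the binding proteins Igfbp2, Igfbp3, Igfbp4, Igfbp5, Igfbp6 and Igfbp7 were followed in mouse palatal shelves dissected on embryonic day 13.5. These 8 genes were taken by symbol from the 19083 genes of the expression table, and 7 of them were among the 13600 genes with enough signal to test. These shelves grow out from both sides of the upper jaw and join to form the secondary palate, and Pax9 is a paired-box transcription factor of their mesenchyme. RNA selected with oligo(dT) was sequenced from 4 Pax9-/- (null) embryos, 2 Pax9+/- (heterozygote) embryos and 2 Pax9+/+ (wild-type) embryos. The heterozygotes and wild types together form the 4 controls. All embryos carry the strain label C57BL/6, and their treatment label is not applicable. The palates were lysed one by one, whole shelves were used with no sorting of cells, and the labels give neither the deleted part of Pax9 nor the litters, so each p-value reflects embryo-to-embryo spread within this set of 8, which may include shared litters.

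IGF1 and IGF2 are secreted growth factors that act through the receptor tyrosine kinase encoded by Igf1r, which signals through insulin receptor substrates to the PI3K and AKT kinases. In the embryo, IGF2 is the main growth-promoting ligand of this receptor. The binding proteins are secreted, hold the IGFs outside the cell, and can either keep them from the receptor or deliver them to it, and proteases that cut the binding proteins release the ligand. IGFBP6 prefers IGF2, and IGFBP7 binds IGFs weakly.

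Pax9 RNA, which checks the null label, was 8.49, 7.19, 9.81 and 10.3 FPKM (read fragments scaled by gene length and by library total) in null 1 to 4. It was 30.1 and 26.2 FPKM in heterozygotes 1 and 2, and 35.8 and 27.2 FPKM in wild types 1 and 2. The null libraries lay below every control library. Heterozygotes and wild types overlapped, so these values do not tell those 2 labels apart. The libraries held between 37123085 and 51284720 reads in genes. Summed FPKM of 8 palatal mesenchyme markers were 983 to 1041 in null and 813 to 960 in control libraries. The markers of the labelled tissue were thus present. Their sums did not overlap between the groups, and Barx1, at 248 to 351 FPKM, was the largest part of each sum. Cartilage markers summed to 139 to 150 FPKM in null and 175 to 197 FPKM in control libraries. Against controls, 2 of 5 tested cartilage markers were called lower, and 1 of 8 mesenchyme and 1 of 6 pericyte markers were called higher. No gene of the other marker lists was called, where 0.419% of all tested genes were (limma, Benjamini-Hochberg adjusted p under 0.05). The part of these lists in the results that follow was not tested. The sums of the epithelium, skeletal muscle, neuron, Schwann and glia, endothelium, pericyte, macrophage and erythroid lists overlapped between null and control libraries, and no list gene was at 0 in all libraries. In whole shelves, fewer cells of a type and less RNA per cell cannot be told apart.

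The promoters of 5 binding proteins are shown because these genes were lower together in the last 4 library columns of the table, as described further on. Each line gives the 100 bases before the RefSeq start site on GRCm38.p6, with capitals marking matches, on either strand, to the TATA-box words TATAAA and its variant TATATA, to the AT-rich word TTTAAA, to the GC-box core GGGCGG or to a paired-domain core, GCGTGAC.
Igfbp2, chr1:72824380-72824479, plus strand: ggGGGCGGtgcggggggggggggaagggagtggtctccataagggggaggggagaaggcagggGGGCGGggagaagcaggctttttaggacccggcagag
Igfbp3, chr11:7213924-7214023, minus strand: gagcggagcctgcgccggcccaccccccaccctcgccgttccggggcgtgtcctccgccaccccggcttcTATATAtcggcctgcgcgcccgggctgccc
Igfbp4, chr11:99041144-99041243, plus strand: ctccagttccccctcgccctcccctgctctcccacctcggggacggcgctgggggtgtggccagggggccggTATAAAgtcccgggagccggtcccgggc
Igfbp5, chr1:72874866-72874965, minus strand: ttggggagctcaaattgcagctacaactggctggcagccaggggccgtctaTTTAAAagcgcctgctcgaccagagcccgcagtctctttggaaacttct
Igfbp7, chr5:77408046-77408145, minus strand: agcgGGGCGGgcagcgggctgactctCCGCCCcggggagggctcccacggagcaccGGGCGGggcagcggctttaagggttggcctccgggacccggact
TATAAA begins 28 bases before the Igfbp4 start, and TATATA begins 30 bases before the Igfbp3 start. The Igfbp5 window holds TTTAAA with its first base 49 before the start, while Igfbp2 and Igfbp7 hold GGGCGG and none of the AT-rich words. For Igfbp5 the gene start in the coordinates given further on lies 19 bases upstream of the RefSeq start, inside the window. The word TTTAAA is thus closer to that gene start than to the RefSeq start. Among 32851 promoter windows of the same length, 5.56% held TATAAA, 2.19% held TATATA, 4.39% held TTTAAA and 24.7% held GGGCGG. The first pair of words can overlap each other. The word GCGTGAC was in 0.931% of the windows and in none of the 8 members' windows of 100 or 250 bases. A match or its lack describes these letters only.

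The members spanned a wide range of levels, given here as FPKM, which is per gene length. The mean over the 8 libraries was highest for Igfbp5 (422 FPKM), followed by Igfbp4 (180 FPKM), Igfbp2 (80.1 FPKM), Igfbp3 (66.1 FPKM), Igf1r (30.7 FPKM), Igf1 (13.8 FPKM), Igfbp7 (3.36 FPKM) and Igfbp6 (0.303 FPKM). The ranges of Igfbp2 and Igfbp3 overlapped, with Igfbp2 above Igfbp3 in 7 of 8 libraries; no other neighbours in this order overlapped. The place of Igf1r above Igf1 rests on the length implied by the authors' FPKM, 4489 bases. With the same reads scaled to its 16791 bases of annotated exons, Igf1r would average 8.22 FPKM and stand below Igf1. Whether the counted reads came from all of these exons was not tested. The binding proteins summed to between 689 and 851 FPKM in null and between 639 and 795 FPKM in control libraries. Igfbp4 and Igfbp5 together made up 77.6% to 81.5% of that sum in null and 79.4% to 80.5% in control libraries. Within that pair, Igfbp5 was 53.0%, 58.2%, 59.0% and 58.3% of the sum in null 1 to 4, against 54.6% to 55.8% in control libraries. Igfbp4 was 24.6%, 22.5%, 22.5% and 22.9% of the sum in null 1 to 4, against 24.6% to 25.4% in control libraries. The ratio of Igfbp5 to Igfbp4 was 2.16, 2.58, 2.63 and 2.55 in null 1 to 4, against 2.15 to 2.25 in control libraries. Null 1 lay below the control range for Igfbp5 and within it for Igfbp4 and the ratio, and the other 3 null libraries lay above them for Igfbp5 and for the ratio and below them for Igfbp4; these shares were not tested.

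**Figure D1:**
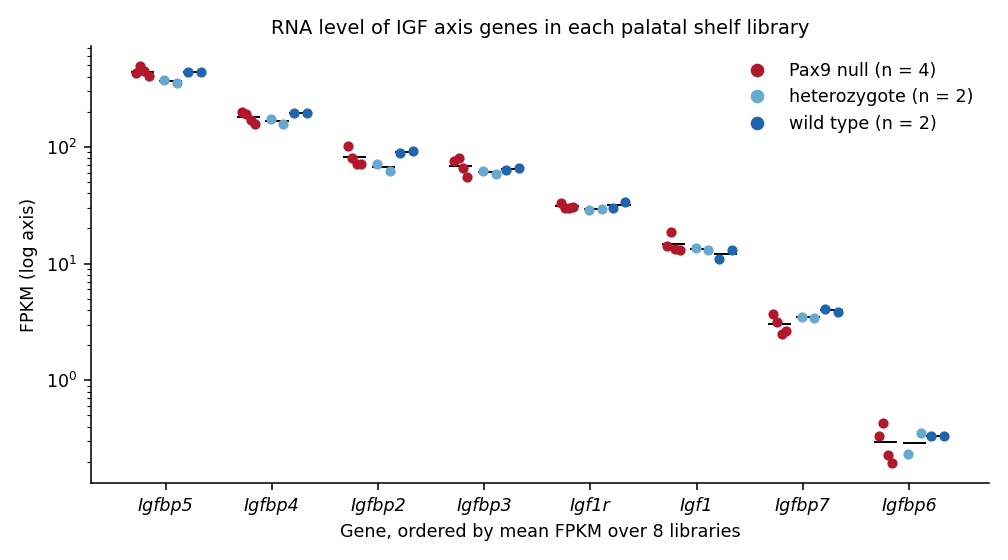
FPKM of the 8 members in each library on a log axis, null libraries left of the controls, one point per embryo and a short line at each genotype mean. Igfbp5 sits at the top between 356 and 495 FPKM and Igfbp6 at the bottom below 0.43 FPKM, and the points of null and control embryos overlap for every member.

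None of the 7 tested members was called changed between null and control embryos (limma, Benjamini-Hochberg adjusted p under 0.05 over all tested genes), where 0.419% of the tested genes (57 of 13600) were called. At an unadjusted p under 0.05 there was 1 of 7, Igfbp7, against 7.15% of all genes (4.19% with a lower level), and limma-voom on the recovered reads also called 0 of 7. The null and control ranges overlapped for all 8 members, whereas 5.13% of the tested genes had ranges that did not. Of the 7 log2 changes, 5 were above 0 and 2 below, with a median of 0.043 beside −0.009 over all tested genes.

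Igf1, the ligand, on chromosome 10 (chr10:87858265-87937042, plus strand), was 14.2, 18.7, 13.4 and 13.1 FPKM in null 1 to 4, against 13.5 and 13.1 FPKM in heterozygotes and 11.0 and 13.0 FPKM in wild types. Null 2 was the highest library and the others were close to the controls. The mean was 14.8 ± 2.63 FPKM in null and 12.7 ± 1.11 FPKM in control embryos (SD, n = 4 each), with 0.21 as the log2 change (SE 0.11, limma, adjusted p = 0.816). The fold was 1.16, with a 95% interval of 0.968 to 1.38. Without null 2 the log2 change was 0.096.

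Igf1r, the receptor (chr7:67952827-68233668, plus strand), had the lowest coefficient of variation among the null libraries, 5.17%. Its level was 33.3, 29.95, 29.8 and 30.7 FPKM in null 1 to 4, against 29.0 and 29.5 FPKM in heterozygotes and 29.9 and 33.8 FPKM in wild types. The fold of null over control was 1.01 with a 95% interval of 0.92 to 1.12 (limma, adjusted p = 0.999). Its comparison across libraries does not depend on the gene length used.

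Igfbp2 and Igfbp5 lie next to each other on chromosome 1 with their 3′ ends facing and 5457 bases between them. Igfbp2 (chr1:72824503-72852474, plus strand) was 102, 80.3, 71.5 and 71.1 FPKM in null 1 to 4, against 72.1 and 61.9 FPKM in heterozygotes and 89.3 and 92.7 FPKM in wild types. Igfbp5 (chr1:72857932-72874884, minus strand), which binds the matrix as well as the IGFs, was 428, 495, 445 and 402 FPKM in null 1 to 4, against 376 and 356 FPKM in heterozygotes and 439 and 436 FPKM in wild types. Both heterozygotes were the lowest libraries for Igfbp5, and heterozygote 2 was the lowest for Igfbp2, while the wild types lay within the null range for both genes. On the log2 scale Igfbp2 had a difference of 0.043 (SE 0.15, limma, adjusted p = 0.999) and Igfbp5 one of 0.14 (SE 0.09, limma, adjusted p = 0.874), which was 0.085 without null 2 and also 0.085 without heterozygote 2.

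Igfbp3, the main carrier of IGFs in blood (chr11:7206086-7213923, minus strand), was 75.4, 80.3, 65.3 and 55.7 FPKM in null 1 to 4, against 62.6 and 59.1 FPKM in heterozygotes and 63.7 and 66.6 FPKM in wild types. The null libraries held both the highest and the lowest value. Its log2 change of 0.12 had an SE of 0.11 (limma, adjusted p = 0.944), and was 0.047 without null 2, 0.077 without null 1 and 0.22 without null 4. Igfbp4, an inhibitor of IGF action (chr11:99041244-99054392, plus strand), was 199, 192, 169 and 158 FPKM in null 1 to 4, against 175 and 158 FPKM in heterozygotes and 195 and 195 FPKM in wild types. The groups covered nearly the same range, and the log2 change was −0.012 (SE 0.094, limma, adjusted p = 1.0).

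Igfbp7 (chr5:77349240-77408041, minus strand) was 3.73, 3.17, 2.49 and 2.64 FPKM in null 1 to 4, against 3.48 and 3.45 FPKM in heterozygotes and 4.07 and 3.87 FPKM in wild types. Null 1 was above both heterozygotes, so the groups overlapped. The mean was 3.01 ± 0.563 FPKM in null and 3.72 ± 0.304 FPKM in control embryos (SD, n = 4 each), a fold of 0.826 (log2 change −0.28, SE 0.11, limma, adjusted p = 0.632). The values rest on 119 to 227 reads per library, and 7.03% of its exonic bases are shared with Polr2b on the other strand, whose reads cannot be told apart without strand. Igfbp7 is often found in blood vessels, and the 7 endothelial markers summed to 124 to 134 FPKM in null and 112 to 138 FPKM in control libraries, ranges that overlapped.

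Igfbp6 (chr15:102144362-102149511, plus strand) was 0.331, 0.427, 0.228 and 0.194 FPKM in null 1 to 4, against 0.232 and 0.350 FPKM in heterozygotes and 0.333 and 0.330 FPKM in wild types. These values come from 8 to 18 reads per library and were below the filter used for the other members. Tested with no filter on low values, Igfbp6 had a log2 change of −0.036 (SE 0.097, 95% interval −0.26 to 0.18, limma, adjusted p = 0.995). Every Igfbp6 value was smaller than the constant added to FPKM before the log, which shrinks both this change and its interval. The width of that interval therefore does not show that the level was unchanged. Counting error alone gave a coefficient of variation of up to 35.4% for Igfbp6 and 9.17% for Igfbp7, and of at most 1.51% for the other members, against 5.17% to 17.8% between null libraries for those others.

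**Figure D2:**
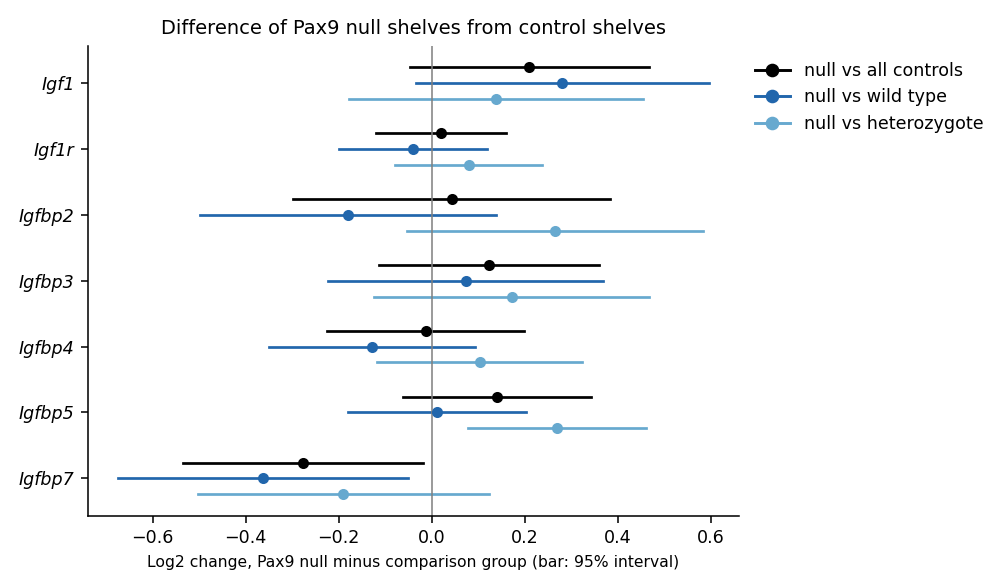
Log2 change of each tested member in null embryos against all controls, heterozygotes and wild types, with 95% intervals from limma. The interval of Igfbp7 against all controls lies below 0, from −0.53 to −0.018, and those of the other 6 members against all controls include 0.

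Against each control genotype alone, no member was called either, and 1 of 7 had an unadjusted p under 0.05 in each comparison, Igfbp7 against wild types (11.6% of all genes) and Igfbp5 against heterozygotes (6.95%). Against wild types, the log2 changes ranged from −0.36 for Igfbp7 (SE 0.14, limma, adjusted p = 0.391) to 0.28 for Igf1 (SE 0.14, limma, adjusted p = 0.459), where 0.382% of genes were called. Against heterozygotes, Igfbp5 had the smallest p, at a log2 change of 0.27 (SE 0.084, limma, adjusted p = 0.598), where 0.0809% of genes were called. Heterozygotes against wild types gave log2 differences of −0.44 for Igfbp2 (SE 0.16, limma, adjusted p = 0.377) and −0.26 for Igfbp5 (SE 0.097, limma, adjusted p = 0.377). Limma called 0 of the 13600 genes in that comparison, with 1568 genes (11.5%) at an unadjusted p under 0.05. Both heterozygotes are in the last 4 columns and both wild types in the first 4, so genotype and column position cannot be told apart here.

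The 5 tested binding proteins were lower in the last 4 columns of the table than in the first 4. Igfbp6, below the filter and not tested, had means of 0.251 FPKM in the last 4 and 0.355 FPKM in the first 4, with overlapping ranges. The last 4 columns hold null 3, heterozygote 1, null 4 and heterozygote 2, and the first 4 hold null 1, wild type 1, null 2 and wild type 2; the labels do not say what the order stands for. Igfbp2 was 61.9 to 72.1 FPKM in the last 4 and 80.3 to 102 FPKM in the first 4 libraries, and Igfbp4 was 158 to 175 FPKM in the last 4 and 192 to 199 FPKM in the first 4. Neither pair of ranges overlapped, as was so for 33.9% of the tested genes (17.1% with the last 4 lower). With genotype as a term, 5 of 7 members were called lower in the last 4 columns, where 40.6% of all tested genes were called in either direction and 21.3% lower. Their log2 differences were −0.39 for Igfbp2 (adjusted p = 0.00661), −0.27 for Igfbp7 (adjusted p = 0.0166), −0.24 for Igfbp4 (adjusted p = 0.00389), −0.23 for Igfbp3 (adjusted p = 0.0299) and −0.19 for Igfbp5 (adjusted p = 0.0335), all from limma. Igf1 and Igf1r were not called, with log2 differences of −0.074 (adjusted p = 0.625) and −0.09 (adjusted p = 0.165).

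Other measures moved with that split. Tested genes were put in 5 bins by the GC content of their longest annotated transcript, which 98.66% of them had. In order of rising GC, the median log2 difference was 0.21, 0.095, 0.0, −0.11 and −0.21. Igfbp2 (62.1% GC) and Igfbp7 (58.8% GC) are in the highest bin, Igfbp3 and Igfbp4 in the next, and Igfbp5 and Igf1r in the middle one, while Igf1 (38.0% GC) is in the lowest. Pericyte markers summed to 100 to 111 FPKM in the last 4 and 118 to 124 FPKM in the first 4 libraries. Skeletal muscle markers summed to 59.0 to 115 FPKM in the last 4 and 86.5 to 284 FPKM in the first 4 libraries. With genotype as a term, 6 of 7 muscle, 4 of 6 erythroid, 3 of 6 pericyte, 3 of 7 epithelial, 2 of 7 endothelial and 2 of 5 cartilage markers were called lower in the last 4 columns, and of 8 palatal mesenchyme markers 4 were called higher and 2 lower. No neuron, Schwann and glia or macrophage marker was called. The part of these in the result was not tested. Among the null libraries alone, an alternative chosen after the data were seen, the last-minus-first differences were −0.34 for Igfbp2, −0.37 for Igfbp3, −0.26 for Igfbp4, −0.12 for Igfbp5, −0.36 for Igfbp7, −0.29 for Igf1 and −0.06 for Igf1r on the log2 scale. None of these was called (limma; adjusted p from 0.0896 to 0.584), nor was any of the 13302 genes tested. At an unadjusted p under 0.05 there were 4 of 7 members, Igfbp2, Igfbp3, Igfbp4 and Igfbp7, against 29.4% of all genes.

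**Figure D3:**
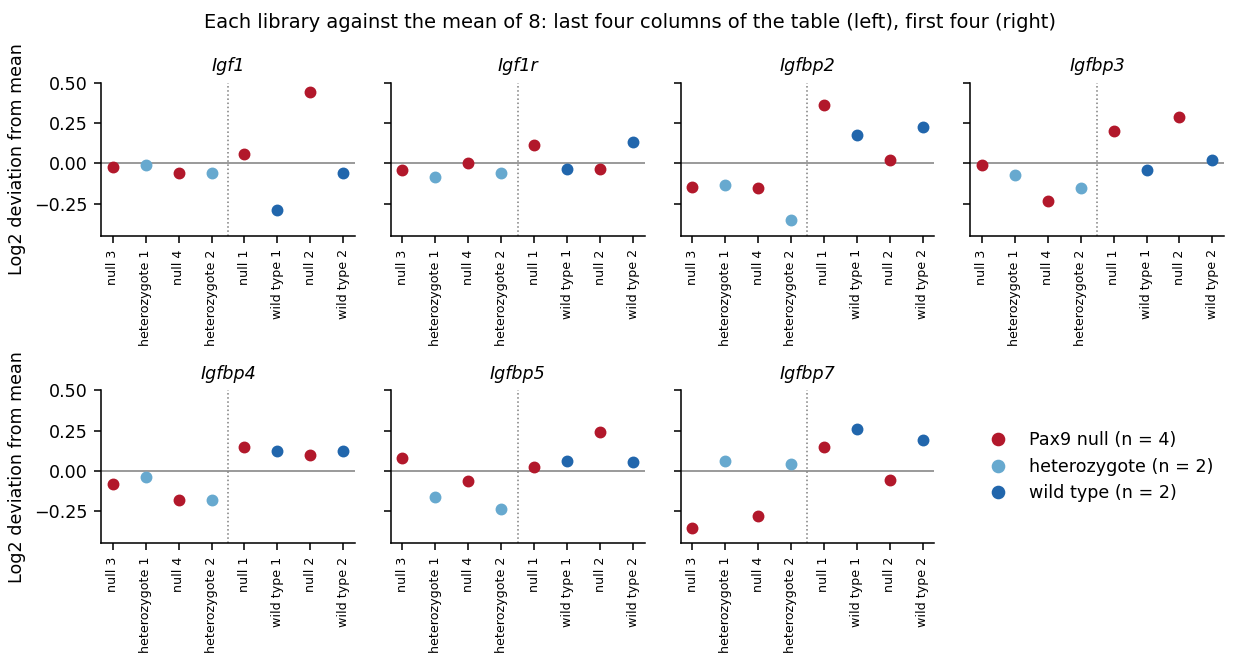
Each tested member's log2 deviation from its mean over the 8 libraries (y axis), with the last 4 columns of the table left of the dotted line and the first 4 right of it, coloured by genotype. For Igfbp2 and Igfbp4 every library of the last 4 lies below every library of the first 4.

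**Figure D4:**
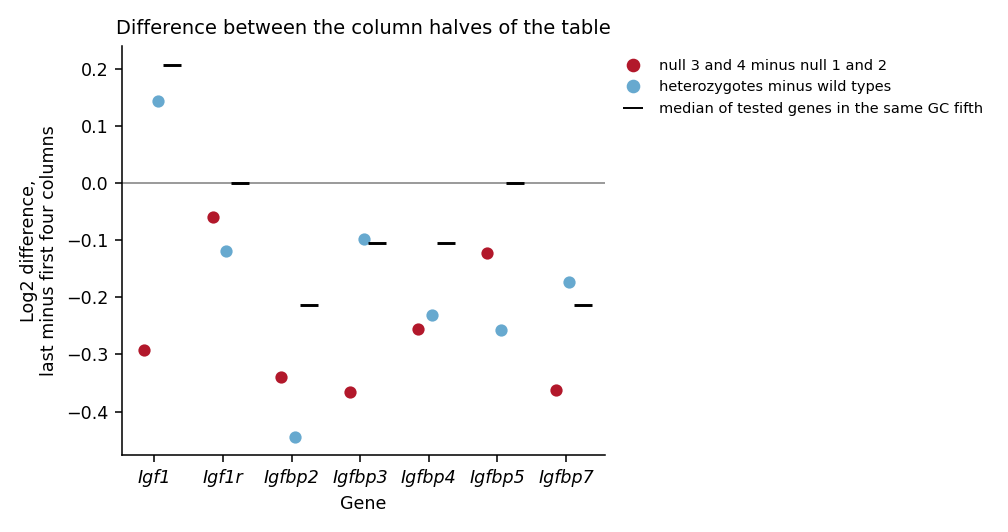
Log2 difference of each member between the last and the first 4 columns, for null 3 and 4 against null 1 and 2 and for heterozygotes against wild types, with a bar at the median of tested genes of like GC content. Igfbp2 lies below its bar in both comparisons, at −0.34 and −0.44.

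With column position (last or first 4) as a block, Igfbp7 in null against control embryos had a log2 change of −0.28 with an adjusted p of 0.0982 (limma), and 2 of 7 members, Igfbp5 and Igfbp7, had an unadjusted p under 0.05. No member was called, where 1.29% of genes were. Igfbp7 lay below the controls in null libraries within the last 4 and within the first 4 columns, and 16.6% of tested genes lay apart from the controls in 1 direction in both. Igf1 and Igfbp3 had changes near 0 in the last 4 columns and above 0 in the first 4. The controls are heterozygotes in the last 4 columns and wild types in the first 4. Column position and control genotype therefore cannot be told apart in these changes. The null-minus-control log2 change was −0.008 in the last 4 and 0.43 in the first 4 libraries for Igf1, and −0.011 in the last 4 and 0.26 in the first 4 for Igfbp3. The difference of these changes was −0.44 for Igf1 (SE 0.18, limma, adjusted p = 1.0) and −0.27 for Igfbp3 (SE 0.11, limma, adjusted p = 1.0). These were the 2 of 7 members at an unadjusted p under 0.05; 0.941% of genes reached an unadjusted p under 0.05 and 0 were called.

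The rest of the pathway gave 0 calls among 43 tested genes of a list of 51, with 25 log2 changes above 0 and 18 below, a median of 0.026 and a range from −0.39 to 0.24 (limma). Over all tested genes 0.419% were called. At an unadjusted p under 0.05 there were 5 of the 43, against 7.15% of all genes. Igf2, the other ligand, was 697, 758, 599 and 621 FPKM in null 1 to 4, against 538 and 538 FPKM in heterozygotes and 565 and 611 FPKM in wild types. The lowest null library was below the highest wild type. Its log2 change was 0.24 (SE 0.084, limma, adjusted p = 0.47, and adjusted p = 0.0563 with column position as a block). Igf2 RNA was 40.5 to 49.2 times that of Igf1 in null and 39.7 to 51.3 times in control libraries, per length. Relative to Igf1r, Igf2 RNA was 20.97, 25.3, 20.1 and 20.2 times as high in null 1 to 4, against 18.1 to 18.9 times in control libraries, per the authors' lengths. These last ranges did not overlap, although the null and control levels of Igf2 and of Igf1r each did. The ratio was not tested, and the share of other gene pairs whose ratios would lie apart was not worked out.

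The receptors Igf2r, which clears IGF2, and Insr both had log2 changes of 0.12 (limma, adjusted p = 0.862 and 0.804), and Insrr had 0.085 (adjusted p = 0.994). Among proteins that act on the binding proteins, the protease genes Pappa, Pappa2, Htra1 and Adam12 had log2 changes of 0.058, −0.06, 0.11 and −0.019, and Stc1, an inhibitor of the pappalysins, had 0.16 (limma, adjusted p = 0.773). Igfbp1, Igfbpl1, Igfals, Stc2, Adam28 and Irs4 were below the level tested, and no gene of the expression table carried the symbol Ins1 or Ins2.

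Within the receptor's intracellular arm, the 3 genes with the smallest p were Irs1, Gab1 and Foxo6. Irs1, the insulin receptor substrate, was 17.8, 18.5, 17.2 and 17.6 FPKM in null 1 to 4, against 15.7 and 14.95 FPKM in heterozygotes and 15.6 and 14.1 FPKM in wild types. Gab1, an adaptor that recruits PI3K, was 25.3, 25.5, 25.5 and 23.1 FPKM in null 1 to 4, against 28.2 and 27.3 FPKM in heterozygotes and 30.7 and 29.0 FPKM in wild types. The null range lay wholly above the control range for Irs1 and wholly below it for Gab1; these were the 2 of 43 listed genes whose ranges did not overlap, against 5.13% of all tested genes. On the log2 scale Irs1 had a change of 0.23 (SE 0.051, limma, adjusted p = 0.14) and Gab1 one of −0.21 (SE 0.055, limma, adjusted p = 0.259). With column position as a block their adjusted p became 0.048 and 0.0494, which called both, where 1.29% of all tested genes were called. Foxo6, a forkhead output of the pathway, had a log2 change of −0.39 (SE 0.15, limma, adjusted p = 0.58).

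**Figure D5:**
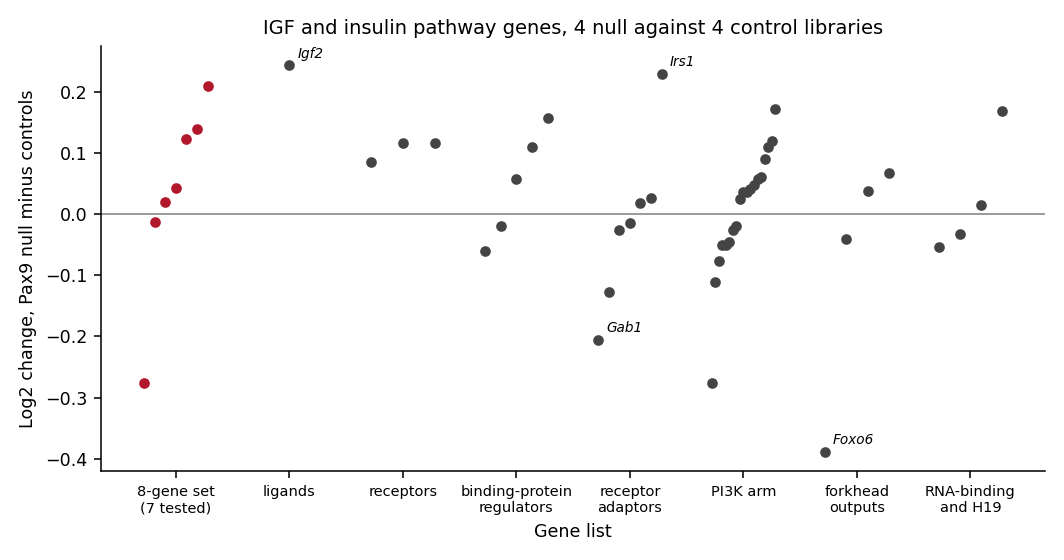
Log2 change in null against control embryos, one point per tested gene, with the members at the left and the other pathway lists in grey. The grey points lie between −0.39 (Foxo6) and 0.24 (Igf2), and Irs1 and Gab1 stand on opposite sides of 0.

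The genes whose pattern over the 8 libraries was nearest to each member, by root mean square difference in units of each gene's SD, were chosen from these same values and are a description. Igfbp4 was nearest to Ucp2 (0.103) and Akt1s1 (0.104), and Igfbp2 to Pabpc4 (0.124) and Dact3 (0.134). Igfbp7 was nearest to Uqcrq (0.186) and Dctpp1 (0.189), Igfbp3 to Chrna4 (0.213) and Prr32 (0.241), and Igfbp5 to Thbs2 (0.249) and Gpc4 (0.283). For Igf1r the nearest were Arhgap45 (0.251) and Gm13588 (0.256), and for Igf1 they were Gm2830 (0.330) and Arnt2 (0.339). Igfbp2 and Igfbp4, whose ranges did not overlap between the last and first 4 columns, had the smallest differences from their nearest genes, and all of these values share the libraries and the column order.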

How the data were processed

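RNA-seq of palatal shelves from 8 embryos was used as deposited, as a table of FPKM for 19083 genes. Per the submitters' processing notes the authors aligned reads with Novoalign 2.08.03 to mm10 and used DESeq2; how the FPKM were counted is not given in the sources used here. All 19083 genes came out as whole reads in every library within 0.003 of a read, and the recovered reads were used for depth and for limma-voom. For 9796 genes the annotated exon length gave whole reads. For the others, Igf1r and Igfbp7 among them, a length was searched for that gave whole reads, so wholeness is no check on those genes. Pairs of libraries of a genotype differed beyond sampling noise (chi-square of at least 11.5 per degree of freedom), so each counts as 1 sample. Symbols and positions came from GENCODE M21 on GRCm38, which matched 18752 identifiers, and promoter sequences from RefSeq on GRCm38.p6, which had all 8 members.

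Genes of at least 1 FPKM in 2 libraries (13600) were tested with limma 3.58.1 (R 4.3.3) on the log2(FPKM + 0.5) scale, with a mean-variance trend and two-sided p-values adjusted by Benjamini-Hochberg; this scale understates changes of low genes. Null was set against all controls in a fit with 2 groups, and against each genotype in a fit with 3 groups. The code was tested on simulated data. Replicate numbers follow the order of samples. Each title also holds 44 or 56, whose meaning the labels do not give. The rule for named genes covers the members, the ligands, receptors and extracellular regulators of the pathway list, its 3 intracellular genes with the smallest p, the 2 nearest patterns per member and Pax9. The members and lists were chosen with earlier results of these data known. Of the table's columns, 0 belonged to other samples.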

Additional observations from a re-analysis of the deposited data

How the results depend on the processing

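No member was called in null against control embryos under any alternative run. Over the members, 124 of 139 recomputed log2 changes kept their direction against all controls, 81 of 84 against wild types, and all 84 in each of the other genotype comparisons. In this balanced design the blocks and the filters on low values could not move a log2 change. Nor could fitting only the 2 genotypes compared, or leaving out a library of the other genotype. A kept direction under those alternatives was fixed in advance. Against all controls the direction turned within the last 4 columns for Igf1 (−0.008) and Igfbp3 (−0.011), and within the first 4 for Igf1r (−0.01) and Igfbp2 (−0.009). It also turned within title number 44 for Igf1r (−0.055) and Igfbp2 (−0.004). Igfbp4 within the first 4 columns was at 0.0, with no direction at these digits, and was counted as turned. Leaving out 1 library at a time gave −0.015 to 0.068 for Igf1r, −0.071 to 0.126 for Igfbp2 and −0.075 to 0.047 for Igfbp4, with the direction kept at 0.096 to 0.264 for Igf1, 0.047 to 0.221 for Igfbp3, 0.085 to 0.185 for Igfbp5 and −0.371 to −0.204 for Igfbp7, and against wild types −0.126 to 0.045 for Igf1r, −0.003 to 0.172 for Igfbp3 and −0.044 to 0.056 for Igfbp5. The count of changed genes, 57, was 35 at a mean FPKM of at least 5, 176 with column position as a block, 3 in the last 4 and 2 in the first 4 columns alone, 9 within title number 56 and 0 within 44 (414 at an unadjusted p under 0.05), and 16 (without wild type 1) to 52 (without null 4) with 1 library left out; the cause was not tested. The replicate block by title number gave 47 changed genes and no member. Igfbp6, at 8 to 18 reads per library, was tested only with no filter on low values.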
